A study of Mus musculus with 18 samples.

Results

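The comparison asked which genes of NaF cells, a mouse mammary carcinoma line, were moved differently by palmitate and by GW1516. For each gene the palmitate effect (palmitate minus full-medium control) was set against the GW1516 effect (GW1516 minus charcoal-serum control), and the difference of the effects is palmitate minus GW1516, in log2 units. Genes were kept when their mean lay above background in all 4 of these groups, background being the 95th percentile of the means of olfactory (Olfr) and vomeronasal (Vmn) receptor genes in that group. This kept 9029 of 22180 genes, measured on 12 of the 18 arrays of the series.

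Each group had 3 arrays. The full-medium controls were untreated cells in DMEM with 10% FBS, and palmitate was added to such cells at 10 µM for 6 hours. The charcoal-serum controls were control cells that had spent 48 hours in DMEM with 10% charcoal-treated FBS, a serum depleted of small lipophilic molecules. GW1516 was added to cells in that serum at 1 µM for 6 hours. Retinoic acid and TTNPB, an agonist of the retinoic acid receptors (RAR), were given like GW1516 and are used here only beside it. All cells were of the single line NaF, and the labels name no vehicle. Compound, dose and serum differed together between the treatments, and the scale of the array values differed between the sera. The parts of these in a difference cannot be told apart.

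Palmitate is the common saturated fatty acid of the diet and of new lipid synthesis, and cells activate it to its CoA ester before they burn, elongate, desaturate or esterify it. GW1516 is a synthetic agonist of PPARδ, a nuclear receptor that binds DNA with RXR at direct repeats of a short half-site and turns on genes of fatty acid transport and oxidation. FABP5 is a cytosolic lipid carrier that delivers ligands, retinoic acid among them, to PPARδ, and the title of the series places saturated fatty acids on FABP5.

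Of 17 mammary epithelial markers, 8 were above background in all 4 groups (Krt18, Krt8, Cldn3, Cldn4, Cdh1, Erbb2, Elf3 and Gata3), whereas Epcam, Krt19, Krt7, Esr1, Krt14 and Trp63 were not. Of these markers Cldn7, Elf5 and Foxa1 were also not above background. Markers of other cell types above background were 2 of 10 for fibroblasts (Pdgfra and Postn), 1 of 8 for endothelial cells (Cdh5), 2 of 8 for macrophages (Cd68 and Cd14), 1 of 7 for adipocytes (Lpl), 0 of 6 for T cells and 0 of 1 for erythroid cells. Background was 0.59 in full-medium controls, 0.63 with palmitate, 1.31 in charcoal controls and 1.30 with GW1516. Array medians were 0.473 to 0.548 in full medium and 1.06 to 1.32 in charcoal serum, so levels are compared within a serum only. Whether a log2 effect has the same scale in both sera is not known and was not tested. GW1516 replicate 3 stood apart, with a mean absolute deviation from its group of 0.231 against 0.0816 to 0.145 on the other arrays compared. All 59 named genes past the threshold kept their call without it.

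The effects differed for 255 of the 9029 genes above background (2.82%) at an adjusted p under 0.05. The difference was negative, palmitate below GW1516, for 209 genes (2.31%) and positive for 46 (0.509%). Adjusted p-values here and below are from limma with the Benjamini-Hochberg method over all genes, and ± beside an effect or a difference is its SE with 3 arrays a group. Over all 22180 genes 280 passed (1.26%). The other 25 were at or under background in at least 1 group, led by Uprt with a difference of -1.60 and an adjusted p of 0.00165, and they are not described further.

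The 255 genes were sorted by which effect passed its own test. A gene is called carried by a treatment when only that treatment's effect passed, whatever the size of the other effect. GW1516 alone passed for 125 genes, 96 with a negative and 29 with a positive difference. Palmitate alone passed for 55 genes, of which 51 were negative and 4 positive. Both passed for 9 genes, in opposite directions for each of them. Neither passed for the remaining 66, whose effects were of moderate size and pointed apart. For comparison, palmitate passed for 150 of the 9029 genes (1.66%), of which 32 rose (0.354%) and 118 fell (1.31%), and GW1516 for 441 (4.88%), of which 313 rose (3.47%) and 128 fell (1.42%). All 3 palmitate arrays lay beyond all 3 controls for 171 of the 255 genes (22.3% of all genes above background) and all 3 GW1516 arrays for 215 (24.5%), shares that the choice of genes raises.

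**Figure D1:**
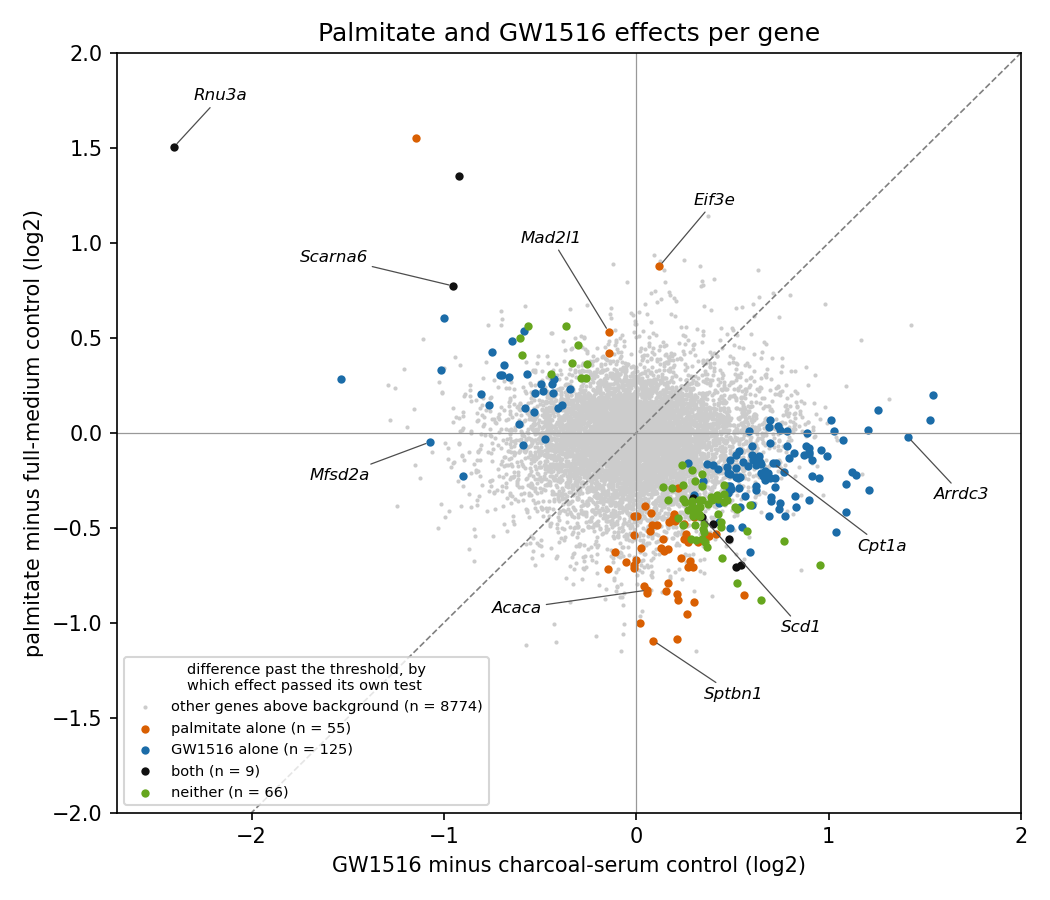
Log2 effect of GW1516 (x axis) and of palmitate (y axis) for the 9029 genes above background, with the 255 genes past the threshold coloured by which effect passed its own test and the dashed line marking equal effects. The coloured genes sit mainly at the lower right, where GW1516 raised and palmitate lowered the value, and Rnu3a lies at the upper left.

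In the plot of both effects the 255 genes spread away from the line of equal effects. Their effects had opposite signs for 231 of 255, a count that choosing genes by the difference favours, beside 49.5% over all 9029 genes. Across the 9029 genes Pearson's r of the effects was -0.00321 and Spearman's rho -0.00599. These are across genes, which are not independent replicates, and the effects share no array. By size alone palmitate held at least 66.7% of the summed absolute effects for 50 of the 255 genes, GW1516 did so for 93, and 112 lay between. Of the genes carried by GW1516, 22 of the 96 negative and 10 of the 29 positive ones lay between. Of those carried by palmitate, 8 of the 51 negative and 1 of the 4 positive ones did.

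Among PPAR target genes, Cpt1a, the carnitine palmitoyltransferase that commits long-chain fatty acids to mitochondrial oxidation, had the largest negative difference. Its log2 values were 6.22, 6.20 and 6.24 in full-medium controls, 6.00, 5.94 and 6.24 with palmitate, 7.15, 7.01 and 7.20 in charcoal controls and 7.91, 7.84 and 7.75 with GW1516. All GW1516 arrays lay above all charcoal controls, whereas the palmitate arrays overlapped their controls. GW1516 raised Cpt1a by 0.71 ± 0.10 (1.64-fold, adjusted p = 0.00116) and palmitate changed it by -0.16 ± 0.10 (adjusted p = 0.948). The difference was -0.87 ± 0.14 (95% interval -1.17 to -0.57, adjusted p = 0.00547). Cpt1a (Entrez 12894) spans chr19:3322326-3385735 on GRCm38.p6.

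Slc25a34, a member of the mitochondrial carrier family, had the largest GW1516 effect of that list. It read 0.83, 1.56 and 1.98 in full-medium controls, 1.47, 2.09 and 2.51 with palmitate, 2.73, 3.13 and 2.90 in charcoal controls and 4.21, 4.24 and 4.60 with GW1516. GW1516 raised it by 1.43 ± 0.25 (2.69-fold, adjusted p = 0.00523). With palmitate its arrays overlapped the controls and the difference of -0.86 ± 0.36 (interval -1.62 to -0.11) did not pass (adjusted p = 0.351).

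The RefSeq promoter windows of GRCm38.p6, which run from 250 bases before to 50 after a transcript start, held a nuclear receptor half-site in both of these genes and in Mfsd2a, which GW1516 lowered. The 3 stretches are shown because GW1516 changed these lipid genes and their windows hold the motif with its flanks. Acadm, which GW1516 also raised, has a half-site at position -249, too near the window's end for the flanks to be shown. The windows of Acadl, Fasn and Abca1, which GW1516 also changed, held no half-site. Those of the lipid genes Plin2, Lpin1 and Elovl6 held one, although the GW1516 effect on these genes did not pass its test. The stretches are written 5′ to 3′ on the gene's strand with the half-site in capitals, AGGTCA on that strand or its complement TGACCT.
Cpt1a: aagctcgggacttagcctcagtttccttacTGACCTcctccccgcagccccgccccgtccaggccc
Slc25a34: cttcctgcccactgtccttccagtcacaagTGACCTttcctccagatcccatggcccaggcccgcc
Mfsd2a: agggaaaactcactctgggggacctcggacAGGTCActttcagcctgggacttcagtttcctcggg
The Cpt1a stretch is chr19:3323177-3323242 on the plus strand, with the half-site 94 bases before the table's transcript start and inside the annotated gene span. The Slc25a34 stretch is chr4:141623918-141623983 on the minus strand, with the half-site 119 bases before the start. The Mfsd2a stretch is chr4:122961366-122961431 on the minus strand, with the half-site 213 bases before the start. A match is a description of the letters and not a binding site.

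Of the 12 PPAR targets above background, 2 passed for the difference, both lower with palmitate (Cpt1a and Klf10), and 0 passed higher. The shares over all genes above background were 2.31% lower and 0.509% higher. The median difference of the list was -0.44 beside -0.04 over all genes above background. GW1516 raised 5 of the 12 (Cpt1a, Slc25a34, Klf10, Acadm and Acadl), beside 3.47% of all genes above background. This and the other gene lists were chosen with earlier results of these data known, so such shares only describe the lists. Palmitate changed 0 of the 12, beside 1.66% (limma, 2 at an unadjusted p under 0.05, beside 1317 of all 9029 genes). Klf10, a zinc finger factor induced by TGF-beta, read 5.09, 5.38 and 5.46 in full-medium controls, 5.19, 5.04 and 5.28 with palmitate, 7.69, 7.47 and 7.50 in charcoal controls and 8.06, 8.20 and 8.21 with GW1516. The GW1516 arrays lay above their controls and the palmitate arrays overlapped theirs. Its difference was -0.75 ± 0.15 (adjusted p = 0.0173), and it missed the threshold without any 1 of 3 arrays (adjusted p 0.0546 to 0.0559).

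Acadm and Acadl, the medium-chain and long-chain acyl-CoA dehydrogenases, rose with GW1516 by 0.62 ± 0.16 and 0.45 ± 0.11 (adjusted p = 0.0497 and 0.031). Their differences of -0.72 (adjusted p = 0.164) and -0.33 (adjusted p = 0.446) did not pass. Plin2, which coats lipid droplets, had effects of 0.38 with palmitate and 0.35 with GW1516, neither past its test, and a difference of 0.03 (interval -0.43 to 0.50, adjusted p = 0.986). Pdpk1, the kinase that activates AKT, had a difference of -0.68 (adjusted p = 0.267). Angptl4 and Pdk4, PPARδ targets in other tissues, and Fads2 were at or under background in at least 1 group and were not assessed.

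In the list of FABP5 and the PPARδ pathway, 2 of 11 genes above background had a lower difference and 0 a higher one. Among all genes above background 2.31% were lower and 0.509% higher. The median difference of the list was -0.24. Palmitate raised 1 of the 11 and lowered 0, beside 0.354% and 1.31% of all genes above background. GW1516 raised 1 and lowered 0, beside 3.47% and 1.42%. Ppargc1a, the coactivator PGC-1α, read 3.37, 3.52 and 3.48 in full-medium controls, 3.48, 3.49 and 3.49 with palmitate, 7.40, 7.41 and 7.41 in charcoal controls and 8.09, 8.17 and 8.03 with GW1516. The charcoal controls were nearly identical, and every GW1516 array exceeded them. GW1516 raised it by 0.69 ± 0.09 (1.61-fold, adjusted p = 0.000514), palmitate changed it by 0.03 ± 0.09, and the difference was -0.66 ± 0.12 (adjusted p = 0.0115). Ncoa3, a coactivator of nuclear receptors often amplified in breast cancer, read 5.57, 5.34 and 5.50 in full-medium controls, 4.89, 5.04 and 5.15 with palmitate, 6.61, 6.57 and 6.57 in charcoal controls and 6.88, 6.97 and 6.78 with GW1516. Neither treatment's arrays overlapped their controls. Its effects of -0.44 with palmitate (adjusted p = 0.0511) and 0.30 with GW1516 (adjusted p = 0.139) missed their own tests, and the difference of -0.74 ± 0.14 passed (adjusted p = 0.0154).

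Fabp5 itself read 2.36, 2.88 and 2.48 in full-medium controls, 2.75, 2.46 and 2.39 with palmitate, 4.08, 4.50 and 4.19 in charcoal controls and 4.08, 4.13 and 4.56 with GW1516. Arrays overlapped in both sera, and the difference was -0.04 ± 0.25 (interval -0.56 to 0.48, adjusted p = 0.984). Ppard, which encodes PPARδ, had a difference of -0.24 ± 0.22 (interval -0.70 to 0.21, adjusted p = 0.788). These intervals leave room for changes of moderate size either way.

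Outside lipid genes, the most negative difference carried by GW1516 was in Cd47, a surface protein that signals to phagocytes. It read 1.73, 1.78 and 1.78 in full-medium controls, 1.26, 1.02 and 1.43 with palmitate, 4.63, 3.83 and 4.46 in charcoal controls and 5.52, 5.13 and 5.39 with GW1516. Palmitate arrays were all lower and GW1516 arrays all higher than their controls. The palmitate mean of 1.24 lay less than 1 log2 unit above that group's background of 0.63, so a fall could be seen only in part. The difference was -1.56 ± 0.24 (adjusted p = 0.00409), with a GW1516 effect of 1.04 ± 0.17 (2.05-fold, adjusted p = 0.00324) and a palmitate effect of -0.52 ± 0.17 that did not pass (adjusted p = 0.285).

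Ero1a, the oxidase that helps form disulfide bonds in the endoplasmic reticulum, had the smallest adjusted p of all 255 genes and was named after its value was seen. It read 7.18, 7.18 and 7.13 in full-medium controls, 7.14, 7.02 and 6.95 with palmitate, 8.48, 8.49 and 8.63 in charcoal controls and 9.55, 9.55 and 9.49 with GW1516. The GW1516 arrays were close together and well above the controls. GW1516 raised it by 0.99 ± 0.07 (1.99-fold, adjusted p = 4.9e-07) and the difference was -1.12 ± 0.10 (adjusted p = 2.14e-05).

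Arrdc3, an alpha-arrestin that directs the trafficking of membrane proteins, had the smallest adjusted p of the genes named by rule. Its values were 3.94, 3.91 and 4.15 in full-medium controls, 4.09, 3.92 and 3.93 with palmitate, 5.69, 5.79 and 6.08 in charcoal controls and 7.22, 7.24 and 7.34 with GW1516. GW1516 raised it by 1.41 ± 0.11 (2.67-fold, adjusted p = 1.44e-06) on arrays that all exceeded the controls. Palmitate left it at -0.02 ± 0.11, and the difference was -1.44 ± 0.15 (adjusted p = 0.000181). Txnip, its relative that binds thioredoxin and restrains glucose uptake, read 9.21, 9.22 and 9.11 in full-medium controls, 9.02, 9.00 and 9.02 with palmitate, 8.72, 8.68 and 8.82 in charcoal controls and 9.51, 9.55 and 9.03 with GW1516. GW1516 replicate 3 was the lowest of its group and still above every control, and all palmitate arrays were below theirs. The Txnip difference was -0.79 ± 0.14 (adjusted p = 0.00893). Of the 5 alpha-arrestins above background, 2 had a lower difference and 0 a higher one (median -0.69). Among all genes above background 2.31% were lower and 0.509% higher. GW1516 also raised Arrdc4 by 0.79 (adjusted p = 0.00721), and its difference of -0.69 did not pass (adjusted p = 0.136).

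Among genes of apoptosis and growth arrest, 2 of 17 passed for the difference, beside 2.82% of all genes above background. Both were carried by GW1516. Cdkn1b, the cyclin-dependent kinase inhibitor p27, read 3.62, 3.89 and 3.72 in full-medium controls, 3.63, 3.61 and 3.51 with palmitate, 6.39, 6.26 and 6.39 in charcoal controls and 6.93, 7.02 and 7.03 with GW1516. The GW1516 arrays were all above their controls and the palmitate arrays overlapped theirs. It rose by 0.65 ± 0.10 with GW1516 (1.57-fold, adjusted p = 0.00237) and its difference was -0.81 ± 0.15 (adjusted p = 0.00943). Trp53inp1, a target of p53, had a difference of -0.93 ± 0.22 (adjusted p = 0.045), but its full-medium controls at 0.73, 0.82 and 0.73 were just above background, and it missed the threshold without any 1 of 10 arrays (adjusted p 0.0505 to 0.113). Both had a negative difference. GW1516 raised 3 of the 17 genes, beside 3.47% of all genes above background, and the median difference of the list was -0.43.

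The remaining large GW1516-carried decreases in the difference were of mixed function. Tbl1xr1, a subunit of the NCoR corepressor complex, had a difference of -1.51 ± 0.28 (adjusted p = 0.0124) and a GW1516 effect of 1.21 ± 0.20. Naa30, the catalytic subunit of an N-terminal acetyltransferase, had a difference of -1.37 ± 0.26 (adjusted p = 0.0124). Atxn7l1 had a difference of -1.46 ± 0.27 (adjusted p = 0.00985) on the probe set taken, whereas both of its other probe sets gave -0.18 and did not pass, so that gene is uncertain. P4ha1, a collagen prolyl hydroxylase, differed by -0.63 ± 0.13 (adjusted p = 0.0181), a call lost without full-medium control replicate 3 (adjusted p = 0.0588).

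Id4, Postn and Abca1 also differed, but less securely. Id4, an inhibitor of bHLH factors, differed by -1.50 ± 0.32 (adjusted p = 0.0266) and missed the threshold without any 1 of 5 arrays. Postn, the matrix protein periostin, read 0.75, 0.95 and 0.92 in full-medium controls, 1.11, 0.90 and 1.21 with palmitate, 4.73, 4.12 and 5.36 in charcoal controls and 6.14, 6.07 and 6.63 with GW1516. Its full-medium values were close to background, its GW1516 values were all above the controls, and the difference of -1.35 ± 0.31 (adjusted p = 0.0384) was lost without any 1 of 8 arrays. Postn is also a fibroblast marker, and the summed log2 level of the 10 fibroblast markers ran from 17.3 to 18.3 in charcoal controls, from 19 to 20.1 with GW1516, from 6.32 to 6.99 in full-medium controls and from 5.58 to 6.93 with palmitate. That sum holds Postn itself. Without Postn the sum of the other 9 ran from 12.4 to 13.6 in charcoal controls, from 12.8 to 13.5 with GW1516, from 5.40 to 6.04 in full-medium controls and from 4.68 to 5.82 with palmitate, and the ranges overlapped in each serum. Of these 9 markers Pdgfra alone was above background in all 4 groups, with means of 4.88 in charcoal controls and 5.32 with GW1516, and Col1a1, Col1a2, Col3a1 and Dcn were not. The part of such cells in the result was not tested. Abca1, the cholesterol exporter and classic LXR target, read 0.73, 0.92 and 0.83 against 0.81, 0.61 and 0.81 in full medium, near background, and 3.31, 3.50 and 3.11 against 4.38, 4.34 and 3.89 in charcoal serum. Its difference of -0.98 ± 0.21 (adjusted p = 0.0309) was also lost without any 1 of 8 arrays. Of the 96 GW1516-carried genes with a negative difference, 26 (27.1%) lay less than 1 log2 unit above background in one of the full-medium groups, beside 28.4% of all genes above background, and a fall with palmitate in such genes could be seen only in part.

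GW1516 alone carried 29 genes with a positive difference, that is, genes it lowered. Mfsd2a, a transporter of lysophosphatidylcholine whose promoter stretch is shown above, read 6.15, 6.24 and 6.29 in full-medium controls, 6.19, 6.03 and 6.31 with palmitate, 8.32, 8.35 and 8.28 in charcoal controls and 7.49, 7.36 and 6.88 with GW1516. The GW1516 arrays were all below the tightly grouped controls, while the full-medium groups overlapped. GW1516 changed it by -1.07 ± 0.13 (2.1-fold lower, adjusted p = 0.000514), and the difference was 1.02 ± 0.18 (adjusted p = 0.00893). Fem1a, a substrate receptor of a ubiquitin ligase, had the largest positive difference in this class, 1.82 ± 0.29 (adjusted p = 0.0045), with a GW1516 effect of -1.53 ± 0.21 (2.9-fold lower).

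Replication genes were among those GW1516 lowered. Mcm5, a subunit of the replicative helicase, read 8.70, 8.79 and 8.73 in full-medium controls, 8.87, 8.90 and 8.84 with palmitate, 9.42, 9.32 and 9.37 in charcoal controls and 8.90, 9.03 and 8.95 with GW1516. Palmitate arrays were all higher and GW1516 arrays all lower than their controls. The GW1516 effect of -0.41 ± 0.06 passed (adjusted p = 0.00219), the palmitate effect of 0.13 ± 0.06 did not (adjusted p = 0.684), and the difference was 0.54 ± 0.09 (adjusted p = 0.00534). Cdc6, which loads that helicase, fell by 0.90 with GW1516 (adjusted p = 0.000514) and its palmitate effect was -0.23 (adjusted p = 0.751), so its difference of 0.67 ± 0.16 (adjusted p = 0.0459) joined effects of the same sign. That call was lost without any 1 of 10 arrays. In the cell cycle list 2 of 26 genes had a higher and 0 a lower difference, with a median of 0.06. The shares over all genes above background were 0.509% and 2.31%. GW1516 lowered 8 and raised 2 of the 26, beside 1.42% and 3.47% of all genes above background. The palmitate effect passed for 0 of them, beside 1.66% of all genes above background. By limma 6 had an unadjusted p under 0.05 for palmitate, beside 1317 of all 9029 genes. The median effect of the list was -0.16 with palmitate and -0.23 with GW1516.

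Among further genes of this kind, Rps3, a protein of the small ribosomal subunit, read 7.76, 7.74 and 7.79 in full-medium controls, 7.94, 8.11 and 8.01 with palmitate, 7.87, 7.90 and 8.10 in charcoal controls and 7.53, 7.54 and 7.48 with GW1516. Both treatments cleared their controls, in opposite directions, and the difference was 0.69 ± 0.11 (adjusted p = 0.00409). It was the only one of 19 ribosomal protein genes above background to pass, beside 2.82% of all genes above background. H2ac21, an H2A histone gene, differed by 1.13 ± 0.19 (adjusted p = 0.00662), although histone genes are near-identical copies and its second, dim probe set gave 0.02. Map2k3os differed by 1.61 ± 0.31 (adjusted p = 0.0138) and is by its name an antisense RNA of Map2k3, from which it may not be told apart if probes or labelling ignore strand. Coq4 of ubiquinone synthesis (1.18 ± 0.27, adjusted p = 0.043) and Chmp2a of the ESCRT-III complex (1.35 ± 0.28, adjusted p = 0.0254) lost the call without any 1 of 10 and 6 arrays.

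Retinoic acid and TTNPB were measured in the same serum and share the charcoal controls with GW1516, so their effects stand beside it as values. Over the 96 GW1516-carried genes with a negative difference the median effect was 0.69 with GW1516, 0.67 with retinoic acid, 0.48 with TTNPB and -0.20 with palmitate. Over the 29 with a positive difference it was -0.59, -0.48, -0.44 and 0.23 in that order. The direct contrasts of GW1516 with the retinoids do not use the controls. Of the 125 genes, 8 differed between GW1516 and retinoic acid (0.764% of all genes above background did) and 2 between GW1516 and TTNPB (0.122%). These contrasts use the GW1516 arrays by which the 125 genes were chosen, and that choice raises such counts. A contrast that missed the threshold does not show that the ligands acted alike.

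Cpt1a was the only one of those 8 that GW1516 moved further than retinoic acid. Its effects were 0.71 with GW1516, -0.01 with retinoic acid and -0.24 with TTNPB, and GW1516 exceeded retinoic acid by 0.72 ± 0.10 (adjusted p = 0.00181) and TTNPB by 0.95 (adjusted p = 0.000499). The other 7, named after their values were seen, were Ehd3, Slmap, Cpd, Bhlhe40, Sec14l1, Gabrp and Nop2, and retinoic acid moved each of them further in the same direction. Gabrp, a GABA receptor subunit, rose by 0.27 with GW1516 and by 1.25 with retinoic acid (adjusted p of the contrast = 7.65e-08). Against TTNPB the second gene was Scarna2, a Cajal body RNA that rose by 0.58 with GW1516 and by 1.07 with TTNPB (adjusted p of the contrast = 0.0337). Slc25a34 followed the pattern of Cpt1a, with -0.05 for retinoic acid and -0.10 for TTNPB, and GW1516 exceeded retinoic acid by 1.48 ± 0.25 (adjusted p = 0.0106) and TTNPB by 1.53 (adjusted p = 0.021).

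**Figure D2:**
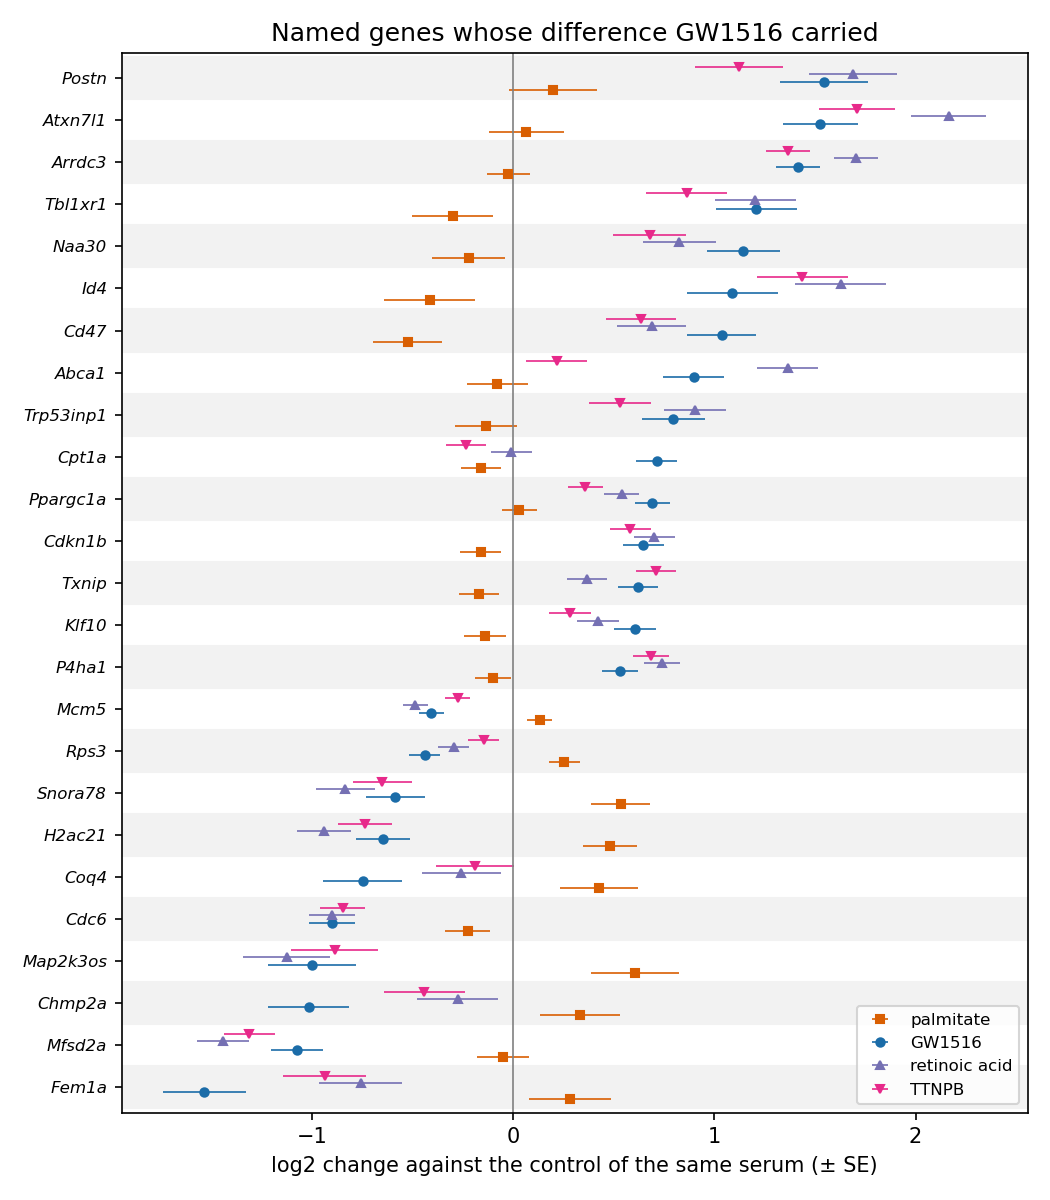
Log2 effect ± SE of palmitate, GW1516, retinoic acid and TTNPB, each against the control of its serum. Shown are the 25 named genes for which only the GW1516 effect passed its own test. Most retinoid values lie on the same side of 0 as GW1516, and Cpt1a is the gene whose retinoid values sit at or below 0 while GW1516 stands at 0.71.

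Palmitate alone carried 55 genes, nearly all of them falls. Their median effects, over the 51 with a negative difference, were -0.61 with palmitate and 0.17 with GW1516. Acaca, the acetyl-CoA carboxylase that makes malonyl-CoA for fatty acid synthesis and for the inhibition of CPT1, read 5.96, 5.78 and 5.70 in full-medium controls, 4.95, 4.87 and 5.14 with palmitate, 7.15, 7.30 and 7.45 in charcoal controls and 7.29, 7.31 and 7.49 with GW1516. Palmitate arrays were all lower than the controls and GW1516 arrays overlapped theirs. Palmitate lowered Acaca by 0.83 (effect -0.83 ± 0.11, 1.78-fold, adjusted p = 0.00106), the GW1516 effect was 0.06 ± 0.11, and the difference was -0.89 ± 0.15 (adjusted p = 0.00725).

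Sptbn1, the beta chain of the spectrin membrane skeleton, read 6.40, 6.25 and 6.33 in full-medium controls, 5.60, 4.93 and 5.16 with palmitate, 8.37, 8.38 and 8.32 in charcoal controls and 8.47, 8.49 and 8.39 with GW1516. It had the largest fall with palmitate among the named genes, an effect of -1.10 ± 0.12 (2.14-fold, adjusted p = 0.000284). Its GW1516 effect was 0.09 ± 0.12 and the difference -1.18 ± 0.17 (adjusted p = 0.0026). Tcf20, a nuclear coregulator, read 6.36, 6.42 and 6.42 in full-medium controls, 5.60, 5.34 and 5.59 with palmitate, 8.34, 8.27 and 8.50 in charcoal controls and 8.61, 8.42 and 8.97 with GW1516. Palmitate arrays cleared their controls and GW1516 arrays did not. Palmitate lowered it with an effect of -0.89 ± 0.11 (adjusted p = 0.000974), and the difference was -1.19 ± 0.16 (adjusted p = 0.00165).

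Pdpr, the regulatory subunit of pyruvate dehydrogenase phosphatase, fell with palmitate (effect -0.85 ± 0.16, adjusted p = 0.0131) and had a GW1516 effect of 0.56 ± 0.16 that did not pass (adjusted p = 0.0712). Its difference of -1.41 ± 0.23 (adjusted p = 0.0045) was the most negative of the class. Luc7l, a component of the U1 small nuclear ribonucleoprotein, fell with an effect of -0.88 ± 0.14 (adjusted p = 0.00519) and differed by -1.10 ± 0.20 (adjusted p = 0.0115). Snx27, which returns cargo from endosomes to the surface, and Ric1, which activates the Golgi GTPase Rab6, differed by -1.30 ± 0.31 (adjusted p = 0.0476) and -1.22 ± 0.24 (adjusted p = 0.0154). Those calls were lost without any 1 of 8 and 2 arrays.

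Of the 4 genes that palmitate alone raised, Mad2l1 of the spindle checkpoint kept its call without any 1 array. It read 4.58, 4.73 and 4.65 in full-medium controls, 5.17, 5.09 and 5.29 with palmitate, 7.40, 7.36 and 7.64 in charcoal controls and 7.37, 7.34 and 7.27 with GW1516. Palmitate arrays were all higher, with an effect of 0.53 ± 0.10 (1.45-fold, adjusted p = 0.0103), and the difference was 0.68 ± 0.13 (adjusted p = 0.0183). Miip (0.57 ± 0.13, adjusted p = 0.0459) and Eif3e, a subunit of translation initiation factor eIF3 (0.76 ± 0.17, adjusted p = 0.0339), lost the call without any 1 of 10 arrays each. The fourth was a copy of the 5S ribosomal RNA gene, n-R5s136, passed over by the naming rule and named after its value was seen, with a difference of 2.70 ± 0.47 (adjusted p = 0.00869). It belongs to a family of near-identical copies and is uncertain.

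Both effects passed, in opposite directions, for 9 genes. Scd1, the desaturase that turns palmitate and stearate into monounsaturated fatty acids, read 8.77, 8.90 and 8.77 in full-medium controls, 8.27, 8.40 and 8.44 with palmitate, 9.84, 9.96 and 9.94 in charcoal controls and 10.17, 10.11 and 10.49 with GW1516. Neither treatment overlapped its controls. Scd1 fell with palmitate (effect -0.44 ± 0.08, 1.36-fold, adjusted p = 0.0124), rose with GW1516 (0.34 ± 0.08, 1.27-fold, adjusted p = 0.0325) and differed by -0.79 ± 0.12 (adjusted p = 0.00322). Tgfb3, a TGF-beta ligand, behaved alike on arrays with little spread. It read 8.60, 8.50 and 8.54 in full-medium controls, 8.17, 8.21 and 8.23 with palmitate, 8.79, 8.83 and 8.77 in charcoal controls and 9.16, 9.14 and 8.98 with GW1516, with a difference of -0.64 ± 0.09 (adjusted p = 0.0021).

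The other 4 genes that fell with palmitate and rose with GW1516 had differences between -1.24 and -0.88. Tpp2, a large cytosolic peptidase that works after the proteasome, differed by -1.24 ± 0.20 (adjusted p = 0.0045). Prrc2c differed by -1.22 ± 0.18 (adjusted p = 0.00342). Slc25a24, the mitochondrial carrier of ATP-Mg and phosphate, differed by -1.04 ± 0.15 (adjusted p = 0.0026), and Ptprg, a receptor tyrosine phosphatase, by -0.88 ± 0.13 (adjusted p = 0.0026).

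The 3 genes that rose with palmitate and fell with GW1516 were all small noncoding RNAs. Rnu3a, a copy of the U3 small nucleolar RNA that processes ribosomal RNA, read 3.64, 3.76 and 4.34 in full-medium controls, 5.82, 4.65 and 5.79 with palmitate, 6.64, 6.96 and 6.66 in charcoal controls and 3.45, 4.61 and 4.99 with GW1516. The arrays of each treatment were widely spread and still did not overlap their controls. Palmitate raised it by 1.51 ± 0.34 (2.84-fold, adjusted p = 0.0487), GW1516 lowered it (effect -2.40 ± 0.34, 5.29-fold, adjusted p = 0.00116) and the difference of 3.91 ± 0.48 (adjusted p = 0.000707) was the largest of all 9029 genes. Scarna6, a Cajal body RNA that guides the modification of spliceosomal RNA, read 6.47, 6.54 and 6.41 in full-medium controls, 7.34, 6.91 and 7.49 with palmitate, 7.17, 7.02 and 7.24 in charcoal controls and 6.13, 6.25 and 6.19 with GW1516. Again neither treatment overlapped its controls, and the difference was 1.73 ± 0.19 (adjusted p = 0.000193). The third, Scarna17, was passed over by the naming rule and named after its value was seen, and it differed by 2.27 ± 0.22 (adjusted p = 5.61e-05).

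Small nucleolar and Cajal body RNAs as a list had 3 of 21 members above background with a higher difference (Rnu3a, Scarna6 and Snora44). In that list 1 member had a lower difference (Scarna2), and the median was 0.14. The shares over all genes above background were 0.509% higher and 2.31% lower. Snora44 differed by 0.93 ± 0.19 (adjusted p = 0.0254, lost without any 1 of 4 arrays) and Snora78, outside the list, by 1.12 ± 0.21 (adjusted p = 0.0122). These RNAs can share sequence with other copies or lie inside host genes, so the values are uncertain.

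Of the 66 genes where neither effect passed alone, the negative ones included enzymes of lipid synthesis. Elovl6, which elongates palmitate to stearate, read 5.71, 5.68 and 5.64 in full-medium controls, 5.46, 4.85 and 5.56 with palmitate, 8.35, 8.10 and 8.36 in charcoal controls and 8.87, 8.81 and 8.65 with GW1516. No arrays overlapped, palmitate replicate 2 being well below the others, and the difference was -0.90 ± 0.19 (adjusted p = 0.0271). Lpin1, a phosphatidate phosphatase of triglyceride synthesis, read 3.94, 3.87 and 4.04 against 3.61, 3.07 and 3.46 in full medium and 5.43, 5.11 and 5.39 against 5.61, 5.65 and 5.73 in charcoal serum, and differed by -0.93 ± 0.21 (adjusted p = 0.0322). Tgfb2 differed by -0.65 ± 0.15 (adjusted p = 0.0395). The Elovl6, Lpin1 and Tgfb2 calls were lost without any 1 of 5, 7 and 8 arrays.

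The most negative difference of all 9029 genes was that of the microRNA gene Mir5125, -1.65 ± 0.38 (adjusted p = 0.0421). Its mature product is printed from RefSeq with the seed, bases 2 to 8, in capitals.
mmu-miR-5125: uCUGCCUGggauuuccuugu
It maps to chr17:23823339-23823358 on GRCm38.p6. The gene read 3.19, 4.18 and 3.01 in full-medium controls, 3.52, 2.16 and 2.60 with palmitate, 6.57, 6.64 and 6.41 in charcoal controls and 7.42, 7.43 and 7.64 with GW1516. Full-medium values were widely spread and overlapped, and the call was lost without any 1 of 8 arrays. A probe set on a hairpin of 79 bases does not measure the mature RNA.

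Other large negative differences without a single effect past its test were in Fndc3a (-1.34), Mmut, the methylmalonyl-CoA mutase (-1.32), the casein kinase Csnk1g1 (-1.10), Arhgap11a (-1.09) and the mitochondrial GTPase Guf1 (-0.97). The positive ones were the histone gene H2bc14 (1.13), Ptges2 (1.10), the chaperone Hgh1 (1.00), Gtpbp3, which modifies mitochondrial tRNA (0.76), and the replication protein A subunit Rpa3 (0.75). Each of these 10 calls was lost without at least 1 array. They had adjusted p-values between 0.0278 and 0.0478. For Fndc3a a second, dim probe set gave a difference of 0.17 that did not pass.

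Fatty acid synthesis with LXR targets was the list with the most calls, 5 of 15 lower (Abca1, Elovl6, Acaca, Scd1 and Elovl5) and 0 higher. Among all genes above background 2.31% were lower and 0.509% higher. The median difference of the list was -0.23. Its median gene span was 41623 bp, beside 21517 bp for all genes above background. The calls of Acaca and Elovl6 were lost with the trend on gene span taken off, as described below. The members reached it by different routes, since Acaca fell with palmitate, Abca1 rose with GW1516, Scd1 did both, and the effects of Elovl6 and Elovl5 (difference -0.68, adjusted p = 0.0384) missed their own tests. Fasn, the fatty acid synthase, did not follow them. It read 8.85, 8.94 and 8.85 in full-medium controls, 8.68, 8.76 and 8.70 with palmitate, 9.31, 9.23 and 9.24 in charcoal controls and 8.99, 9.02 and 8.76 with GW1516. Arrays of both treatments lay below their controls, GW1516 lowered it (effect -0.34, adjusted p = 0.0129), and the difference was 0.17 (interval -0.03 to 0.38, adjusted p = 0.566).

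Of the other lipid lists, each had at most 1 gene past the test in a direction. The shares over all genes above background were 2.31% lower and 0.509% higher. Fatty acid oxidation had 1 of 21 lower (Cpt1a) and a median of -0.29. Fatty acid uptake and lipid droplets had 1 of 19 lower (Lpin1) and 1 higher (Mfsd2a), with a median of -0.08. Cholesterol synthesis and uptake had 0 of 21 in either direction by limma (2 at an unadjusted p under 0.05) and a median of -0.07.

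Outside lipid metabolism, EMT and TGF-beta targets had 3 of 12 lower (Id4, Postn and Tgfb2), beside 2.31% of all genes above background, and 0 higher. The median of that list was -0.24.

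Stress and retinoid lists held no call for the difference by limma. These were ER stress with the integrated stress response (0 of 20, with 4 at an unadjusted p under 0.05), NRF2 and AhR targets (0 of 10, with 1 unadjusted), heat shock and protein folding (0 of 12, with 0 unadjusted) and RAR targets with retinoid handling (0 of 8, with 3 unadjusted). The median differences of these lists were -0.07, 0.10, 0.12 and -0.31 in that order, beside -0.04 over all genes above background. Over all 9029 genes 2.82% passed for the difference and 1890 had an unadjusted p under 0.05. At that share, lists of this size can easily hold no call. Ddit3, the stress factor CHOP, rose by 1.09 ± 0.15 with GW1516 (2.13-fold, adjusted p = 0.000984), its palmitate effect was 0.25, and the difference of -0.84 ± 0.21 came close to the threshold (adjusted p = 0.0612). Atf3, another stress factor, had effects of 0.15 with each treatment. Also without a call were SR and hnRNP splicing factors (0 of 18, with 4 unadjusted) and oxidative phosphorylation (0 of 22, with 5 unadjusted). NF-kB with cytokines (0 of 6, with 0 unadjusted) and interferon response (0 of 4, with 0 unadjusted) had none either. Hypoxia with glycolysis (P4ha1) and the serum response (Klf10) had 1 lower of 18 and 1 lower of 23. Among all genes above background 2.31% were lower.

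**Figure D3:**
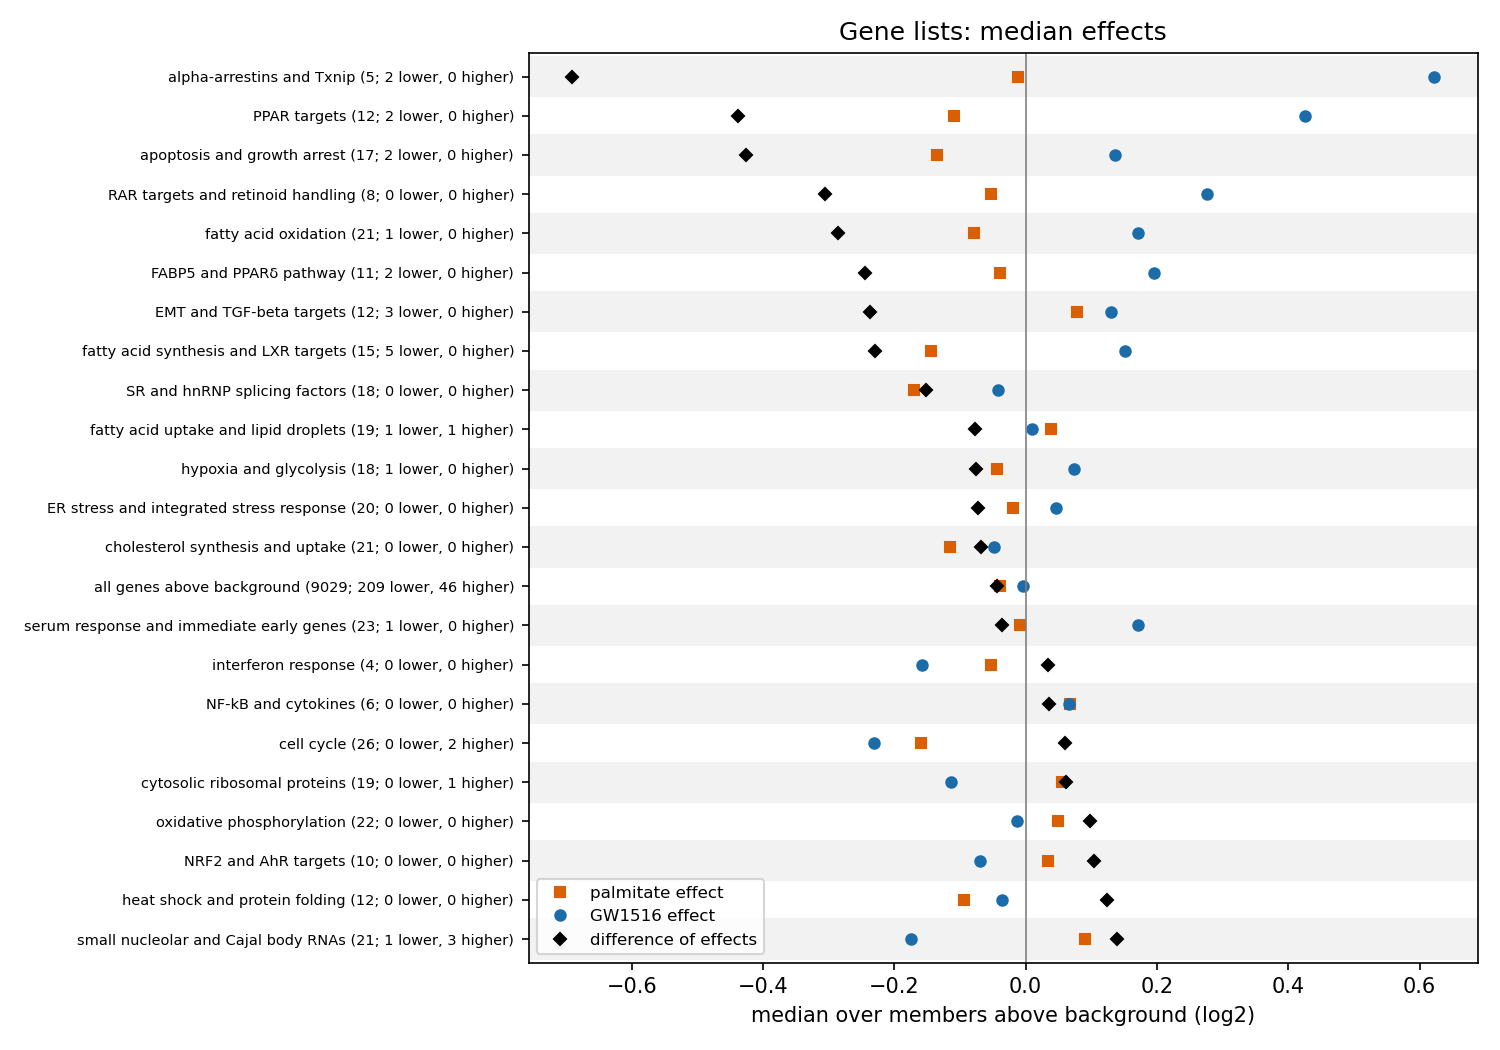
Median log2 effect of palmitate (squares) and GW1516 (circles) and median difference of effects (diamonds) over the members of each gene list above background, with the number of members and of calls in each direction in the label. Alpha-arrestins and PPAR targets have the most negative medians, -0.69 and -0.44, and the row of all genes lies at -0.04.

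The called genes differed in the length of the gene. Genes with a negative difference had a median genomic span of 65892 bp, those with a positive one 6833.5 bp, and all 9029 genes 21517 bp. Among the 1800 longest genes (61804 to 1105888 bp) 109 were lower, or 6.06%, and 0 higher, while among the 1800 shortest 12 were lower and 25 higher. From the shortest to the longest genes the median palmitate effect went from 0.04 to -0.13 and the median GW1516 effect from -0.08 to 0.12. The median effect went from -0.06 to 0.17 with retinoic acid and from -0.02 to 0.07 with TTNPB, and both share the 3 charcoal controls with GW1516.

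Single arrays showed the same pattern. Long genes minus short genes, each against the control mean of the serum, came to -0.157, -0.163 and -0.183 on the palmitate arrays and to 0.196, 0.172 and 0.218 on the GW1516 arrays, while the TTNPB arrays were at 0.0815, 0.0681 and 0.104 and the retinoic acid arrays at 0.249, 0.249 and 0.181. No treated array overlapped the controls, which ran from -0.024 to 0.013 and are near 0 by construction. With the trend on gene span taken off each array, 126 genes passed, of which 109 were among the 255, and negative calls fell from 209 to 81 while positive ones went from 46 to 45. Cpt1a, Arrdc3, Scd1 and Sptbn1 kept their calls. Lost were, among others, Acaca (-0.60, adjusted p = 0.108), Ppargc1a (-0.36, adjusted p = 0.272), Ncoa3 (-0.50, adjusted p = 0.183), Ptprg (-0.57, adjusted p = 0.0616) and Elovl6 (-0.64, adjusted p = 0.0912). The spans are those of the RefSeq table of GRCm38.p6.

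**Figure D4:**
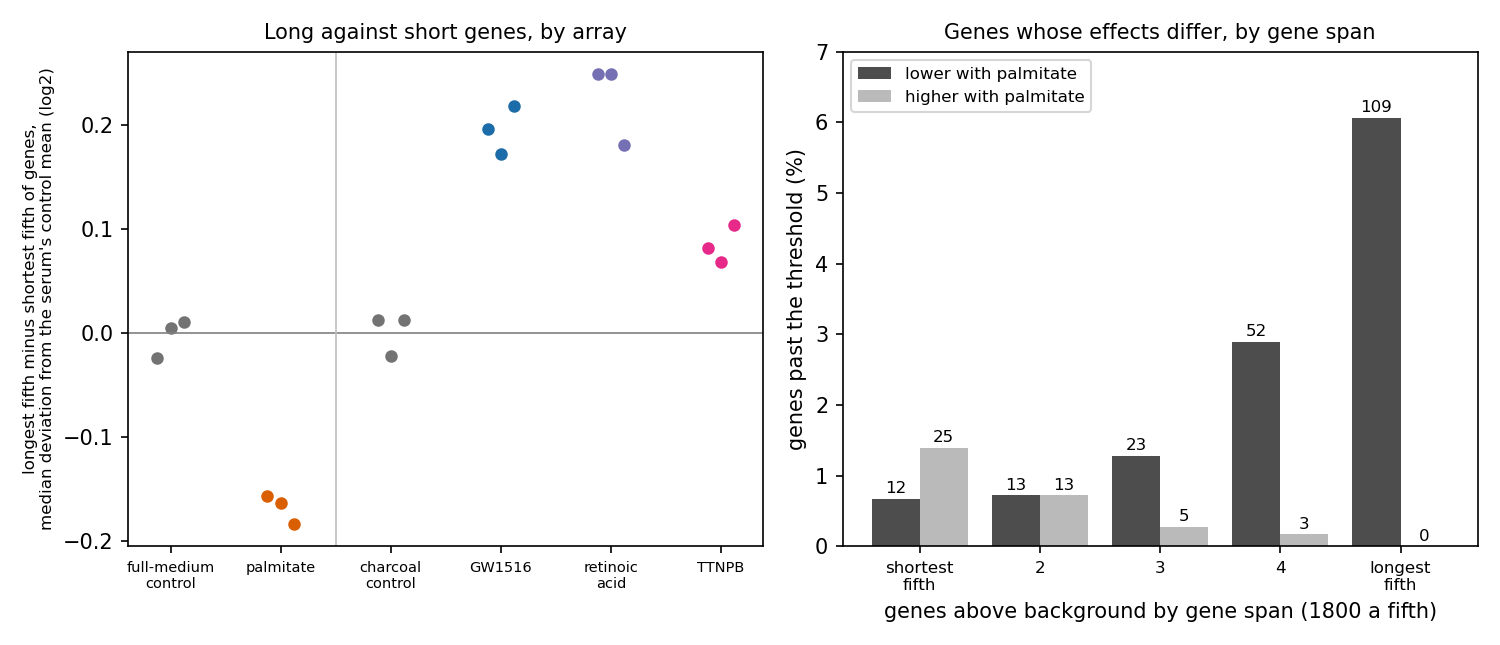
Left, the 1800 longest minus the 1800 shortest genes above background on each array, as the difference of median deviations from the control mean of the serum (log2). Right, percent of the genes in each of 5 equal groups by gene span that were lower or higher with palmitate, with their numbers above the bars, rising from 12 to 109 lower genes.

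Promoter windows of the classes were compared for 9 motifs on both strands, as shares and without a test. The half-site AGGTCA was in 16.3% of all 32851 windows and in 12.2% of those of genes above background. It was in 12 of 103 windows (11.7%) of the GW1516-carried genes with a negative difference and in 6 of 25 (24%) of those with a positive one. Among palmitate-carried genes with a negative difference it was in 1 of 56 (1.79%). The PPAR element of 2 half-sites 1 base apart (DR1), in which each match also counts as a half-site, was in 0.0396% of all windows and in 0 of the windows of each class.

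The shares of the other motifs are given in the order genes above background, GW1516-carried negative, GW1516-carried positive and palmitate-carried negative. GGGCGG was in 65.3%, 64.1%, 56% and 71.4%, CCAAT in 37.8%, 38.8%, 52% and 30.4%, and CACGTG in 10.5%, 8.74%, 24% and 7.14%. TATAAA was in 6.49%, 9.71%, 8% and 5.36% and the antioxidant response element TGACNNNGC in 14.1%, 12.6%, 24% and 16.1%. The sterol regulatory element TCACCCCAC was in 0.68%, 1.94%, 0% and 1.79%, and the element of ATF4 and C/EBP, TGATGCAAT, in 0.0972%, 0%, 0% and 0%. In the 25 windows of the GW1516-carried positive genes, the half-site, the E-box CACGTG, the CCAAT box and the antioxidant response element thus all had higher shares than among genes above background. Such small counts of windows move by several percent with a single match.

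The number of genes called rests on the spread shared by all 18 arrays, and on the 12 arrays alone 6 genes passed, among them Scarna6, Rnu3a and Arrdc3. Without 1 array the count of 255 fell to 139, 119 and 157 for charcoal controls 1, 2 and 3, to 118 and 124 for full-medium controls 2 and 3 and to 155 for palmitate 2, and it rose to 541 without GW1516 replicate 3. The 46 positive calls also fell to 27 without full-medium control 1 and to 28 and 20 without palmitate 1 and 3. Negative differences made up 82% of the calls above background, 63.6% after quantile normalization and 91.4% with arrays centred on their medians. With centred arrays also set to a common spread they made up 0 of 4 calls.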

How the data were processed

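The authors deposited log2 values for each probe set on Affymetrix mouse arrays of NaF cells. The submitters' processing notes name Partek, and its version, the background correction and the normalization are not given in the sources used here. No source names the log base, and the range of the values fits log2. The number of arrays limits the precision.

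Of 41345 probe sets, 23521 carried 1 gene symbol, 1814 several and 16010 none, and only the first kind was used. The symbols of 23328 of these were in a RefSeq table of GRCm38.p6. For 1082 genes with several probe sets the probe set brightest on average across the 18 arrays was used, which gave 22180 genes. Background came from 1394 receptor genes.

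Group means were fitted to all 18 arrays of 6 groups with limma 3.58.1 in R 4.3.3 (trended variances, 12 residual degrees of freedom, 2-sided tests, threshold 0.05). The difference of effects is a single contrast of 4 groups. Promoter and microRNA sequences are RefSeq's, on GRCm38.p6. Figures were drawn with matplotlib 3.10.9. The script was tested on simulated data.

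The members, the 22 gene lists and the motifs were chosen with earlier results of these data known. Named genes are the 6 largest differences in each class and direction, up to 3 called members of each list and 17 genes fixed by name. Gene models with a provisional name and genes on chromosome 18 were passed over.

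The labels do not say whether replicates were separate cultures, so p-values here rest on a spread that may be technical alone. Replicate numbers were not used as pairs in the main fit. Deviations of same-numbered arrays correlated between -0.0794 and 0.0491, which cannot show whether these arrays were handled together. Counts with the replicate number as a block are given below. At most 2.55% of values were identical (within 1e-06) in a pair of replicate arrays. Alternatives were other variance models, normalizations, probe set rules, thresholds, background definitions and each array left out. Taking off the trend on gene span, and asking for 1 log2 unit above background, were chosen after seeing the data.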

Additional observations from a re-analysis of the deposited data

Results flagged for a closer look

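The palmitate and GW1516 effects differed by the test of the difference itself for 255 genes above background, and 59 of the named genes were among them. Their values, in log2 units as palmitate effect minus GW1516 effect, are given here by class, with no explanation. Where GW1516 alone passed its own test, the negative differences were Cd47 -1.56, Tbl1xr1 -1.51, Id4 -1.50, Atxn7l1 -1.46, Arrdc3 -1.44, Naa30 -1.37, Postn -1.35, Abca1 -0.98, Trp53inp1 -0.93, Cpt1a -0.87, Cdkn1b -0.81, Txnip -0.79, Klf10 -0.75, Ppargc1a -0.66 and P4ha1 -0.63. The positive ones in that class were Mcm5 0.54, Cdc6 0.67, Rps3 0.69, Mfsd2a 1.02, Snora78 1.12, H2ac21 1.13, Coq4 1.18, Chmp2a 1.35, Map2k3os 1.61 and Fem1a 1.82. Where palmitate alone passed, the negative differences were Pdpr -1.41, Snx27 -1.30, Ric1 -1.22, Tcf20 -1.19, Sptbn1 -1.18, Luc7l -1.10 and Acaca -0.89. The positive ones there were Miip 0.57, Mad2l1 0.68 and Eif3e 0.76. Where both passed, the negative differences were Tpp2 -1.24, Prrc2c -1.22, Slc25a24 -1.04, Ptprg -0.88, Scd1 -0.79 and Tgfb3 -0.64. The positive ones were Scarna6 1.73 and Rnu3a 3.91. Where neither passed alone, the negative differences were Mir5125 -1.65, Fndc3a -1.34, Mmut -1.32, Csnk1g1 -1.10, Arhgap11a -1.09, Guf1 -0.97, Lpin1 -0.93, Elovl6 -0.90, Ncoa3 -0.74 and Tgfb2 -0.65. The positive differences without a single effect past its test were Rpa3 0.75, Gtpbp3 0.76, Snora44 0.93, Hgh1 1.00, Ptges2 1.10 and H2bc14 1.13. The difference comes from arrays in different sera, and compound, dose, serum and the array scale of each serum cannot be told apart in any of them.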

How the results depend on the processing

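No called difference among the 72 named genes changed sign under any of 28 alternatives. Of the 59 called named genes, 31 kept the call without any 1 array and 2, Scarna6 and Rnu3a, under every alternative. The counts moved more. They are given in the order all genes tested, above background, lower and higher, and were 280, 255, 209 and 46 as reported. With only the 12 arrays of the 4 groups they were 8, 6, 3 and 3. With the replicate number within serum as a block they were 122, 114, 95 and 19. Arrays centred on their medians gave 63, 58, 53 and 5, and centred arrays set to a common spread gave 4, 4, 0 and 4. Array weights gave 849, 717, 528 and 189. A fit to genes above background alone, with fewer genes tested, gave 463, 463, 370 and 93. An adjusted p below 0.01 left 68, 65, 55 and 10. Without GW1516 replicate 3 and palmitate replicate 2 together they were 491, 451, 331 and 120. Quantile normalization gave 91 higher. With the trend on gene span taken off, an alternative chosen after seeing the data, they were 139, 126, 81 and 45. Leaving out 1 array gave 125 to 611, 118 to 541, 87 to 437 and 20 to 104. Apart from the fit on fewer genes, the cause of these shifts was not tested. Of the 59 called named genes, 57 lost the call with centred arrays set to a common spread, 56 with only the 12 arrays, 42 with centred arrays, 36 at an adjusted p below 0.01, 25 under the replicate block and 20 with the span trend taken off. The other settings (a flat or a robust prior for the variances, a variance factor per serum, the mean of all probe sets, all probe sets tested, a 1.5-fold minimum and the 5 other background rules) kept the 4 counts within 1.5 times. Values near background have little room to fall, most of all in full medium.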
